A study of Mus musculus with 9 samples.

Results

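The genes described here encode the subunits of the transcription factor NF-kB (Nfkb2, Rel, Rela and Relb), the IkB proteins that hold it in check (Nfkbia, Nfkbib and Nfkbie), the related nuclear protein Bcl3, and the signalling adaptor Traf1. Their probe sets were taken as all those whose platform annotation gives one of 10 listed symbols, and the list was drawn up with earlier results of these data known. Probe sets were found for 9 of the 10 genes; Nfkb1 was not analysed here. These 9 genes have 12 probe sets on each array design, and 10 probe sets are on both designs. The larger table holds 8251 genes and 10833 probe sets with a single symbol.

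The samples are dendritic cells of day 10, which present antigen to T cells, and their RNA was read on 9 Affymetrix arrays. Cells came from 3 mouse groups with 3 arrays each: mice labelled CIITA-/- (for CIITA, the activator of MHC class II genes), IAb-/- mice (after the H2-Ab1 chain of class II molecules), and wild-type B6 mice. The titles number the arrays of a group as experiments 1 to 3, and one CIITA-/- array without a number took the remaining number, 2. Experiments 2 and 3 used a design with 12488 probe sets, while experiment 1 used another with 12654. The sources used here state no treatment, culture method, sex or age, and they do not say which arrays share a mouse or culture, so the spread between arrays may be purely technical.

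NF-kB proteins bind DNA as dimers and control genes of inflammation, cell survival and dendritic cell maturation. In a resting cell the classical dimers, such as RelA with p50, are kept in the cytoplasm by IkB proteins; signals from Toll-like or TNF-family receptors activate the IkB kinases, the IkB proteins are degraded, and the dimers enter the nucleus. An alternative route processes the p100 product of Nfkb2 into p52, which pairs with RelB, a subunit known to be needed for dendritic cell development. Several of the genes are themselves NF-kB targets, so that Nfkbia transcription in particular is known to restore the inhibitor after activation.

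The stretches before the transcription start are shown because several of these genes are known to be controlled by the factor they encode or restrain. RefSeq promoter windows of build GRCm38.p6, from 250 bases before the start to 50 bases after it, were matched by symbol for 8 of the 10 listed genes; Nfkb1 and Relb had none in that table. A script searched both strands for the kappaB consensus and merged overlapping matches into one site. The motif was in a window of 5 of the 8 genes (Nfkb2, Rel, Nfkbia, Nfkbie and Bcl3), against 9.55% of the 27025 genes with a window. By window it was in 7 of the 10 windows of these genes, against 8.46% of all 32851 windows. The windows of Rela, Nfkbib and Traf1 did not hold these letters. A match describes the sequence and shows no binding. The 250 bases before the start of the genes with an upstream match follow, 5′ to 3′ on the strand of the gene, together with 30 bases around the Bcl3 match, which lies just after the start. Capitals mark the kappaB matches.
Nfkbia (chr12:55492648-55492897, minus strand): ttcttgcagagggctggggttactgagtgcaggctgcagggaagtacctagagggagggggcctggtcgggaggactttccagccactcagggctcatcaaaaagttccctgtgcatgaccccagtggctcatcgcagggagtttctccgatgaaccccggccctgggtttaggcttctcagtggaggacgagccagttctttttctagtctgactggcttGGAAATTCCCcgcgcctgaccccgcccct
Nfkb2 (chr19:46304487-46304736, plus strand): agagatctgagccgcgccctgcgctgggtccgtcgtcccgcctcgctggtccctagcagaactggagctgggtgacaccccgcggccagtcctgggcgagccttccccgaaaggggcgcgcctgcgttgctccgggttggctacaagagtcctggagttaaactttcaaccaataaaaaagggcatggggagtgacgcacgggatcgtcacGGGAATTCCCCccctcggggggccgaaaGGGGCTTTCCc
Rel (chr11:23770970-23771219, minus strand): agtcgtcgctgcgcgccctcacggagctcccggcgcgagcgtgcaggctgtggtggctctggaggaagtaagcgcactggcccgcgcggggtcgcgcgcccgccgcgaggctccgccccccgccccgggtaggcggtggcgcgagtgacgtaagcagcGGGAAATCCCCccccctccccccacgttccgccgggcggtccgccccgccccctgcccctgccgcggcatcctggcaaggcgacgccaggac
Nfkbie (chr17:45555450-45555699, plus strand): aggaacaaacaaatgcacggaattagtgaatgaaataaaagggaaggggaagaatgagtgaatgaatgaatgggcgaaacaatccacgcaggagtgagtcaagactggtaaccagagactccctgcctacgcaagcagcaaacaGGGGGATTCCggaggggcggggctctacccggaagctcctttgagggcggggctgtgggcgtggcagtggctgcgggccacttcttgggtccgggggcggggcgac
Bcl3 (chr7:19822734-19822763, minus strand): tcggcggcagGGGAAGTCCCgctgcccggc
Counted in bases from the start, with negative positions before it, the match of Nfkbia begins at -29, that of Rel at -92 and that of Nfkbie at -106. Nfkb2 has 3 windows, for different starts, and each holds a match. The windows not printed overlap each other and share a site, so the count by window holds that site in both. In the window printed the sites begin at -39 and -11.

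Values are intensities in arbitrary units, and each array has 21% to 26.4% of its values below 0. A value was taken as above noise where it exceeded 1701 in the 6-array table of experiments 2 and 3 or 2203 in the 3-array table of experiment 1, limits taken in each table as the 95th percentile of the negative values without their sign. H2-Aa, a class II gene, gave -1520 and -2254 on the CIITA-/- arrays of experiments 2 and 3, 46977 and 29271 on the IAb-/- arrays, and 51407 and 53578 on the B6 arrays. In experiment 1 H2-Aa gave -1893 in CIITA-/-, 65738 in IAb-/- and 33825 in B6, so that IAb-/- was above B6 there. H2-Ab1, the gene that the label IAb-/- refers to, gave 615 and 112 on the CIITA-/- arrays, 16070 and 9621 on the arrays labelled IAb-/-, and 17261 and 21348 on the B6 arrays. In experiment 1 it gave 675 in CIITA-/-, 30749 in IAb-/- and 44048 in B6. Signal from H2-Ab1 was thus far above noise on every array labelled IAb-/-, below that of B6 in each experiment. Ciita, the gene named in the label CIITA-/-, was within noise on every array, at 1601 and 1639 in CIITA-/-, 398 and 644 in IAb-/-, and 623 and 933 in B6, and at 1822, 1224 and 1045 in experiment 1. Its values were highest, not lowest, on the arrays labelled CIITA-/-. No source used here places these probe sets relative to the disrupted parts of H2-Ab1 and Ciita, so neither checks its label; the groups below are named as labelled. All 10 dendritic cell markers were above noise on all 6 arrays, and their sums ranged from 585676 to 598965 in CIITA-/-, from 501816 to 714789 in IAb-/- and from 541541 to 564575 in B6. Of the markers of other cells, 5 of 11 for macrophages, 2 of 7 measured for B cells, 2 of 7 for fibroblasts, 1 of 9 for neutrophils, 1 of 7 for mast cells, 0 of 8 for T cells and 0 of 5 for NK cells were above noise on all 6. The summed fibroblast markers ranged from 12260 to 16435 in CIITA-/-, from 11101 to 14725 in IAb-/- and from 9095 to 10094 in B6, and the neutrophil markers from 8588 to 10042, 10808 to 11956 and 7598 to 8638 in the same order of groups. The macrophage sums were 26453 to 26875, 25616 to 28489 and 21028 to 24828, and the mast cell sums 9267 to 9768, 8778 to 10228 and 7684 to 8109. The B6 ranges of these 4 sums lay below those of both other groups, except that the neutrophil range overlapped that of CIITA-/-, and for dendritic cell markers it was below CIITA-/- and inside the range of IAb-/-; no marker was called, and the part of other cells in the values below was not tested.

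In these dendritic cells the transcripts of RelA, RelB, Nfkb2, IkB-alpha, IkB-beta and Traf1 were clearly above noise in all 3 groups, and none of them passed the test for a difference between groups. Tests come from 1 limma fit to all 3 groups of the 6-array table (n = 2 arrays per group), on log2 of values floored at 123.5, the 30th percentile of the table, with Benjamini-Hochberg adjustment over 9312 probe sets. Of the 12 member probe sets, 10 passed the filter on low values. Of the 10, 0 were called in CIITA-/- against B6 at an adjusted p under 0.05, against 0.0966% of all probe sets tested, and 0 had an unadjusted p under 0.05 in limma, against 5.86%. Under 5 alternative settings 1 member did in that comparison. The counts were again 0 and 0 in IAb-/- against B6, beside 0.0107% and 4.31%, and 0 and 0 in CIITA-/- against IAb-/-, beside 0.0215% and 4.54%. With the experiment as a replicate block, limma called 0 probe sets of the whole table in each comparison, where 606, 491 and 492 had an unadjusted p under 0.05 in the same order of comparisons.

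The size of what could have been missed is given by the intervals. For the 7 member probe sets above noise on all 6 arrays, the 21 log2 differences of the 3 comparisons ran from -0.37 to 0.13, and all 21 of their 95% intervals contained 0. The bounds of these intervals lay at folds between 0.592 and 1.46, so these arrays do not resolve changes within that range. Every one of the 7 differed by less than 0.5 on the log2 scale in each comparison, as did 97.8%, 97.6% and 98.3% of all probe sets above noise in CIITA-/- against B6, IAb-/- against B6 and CIITA-/- against IAb-/-. Their median log2 difference was -0.13, -0.07 and -0.06 in that order, against 0.01, 0.01 and 0 over the 3692 probe sets above noise on all 6 arrays. RNA was taken from bulk cells, so fewer cells of a type and less RNA per cell cannot be told apart.

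**Figure D1:**
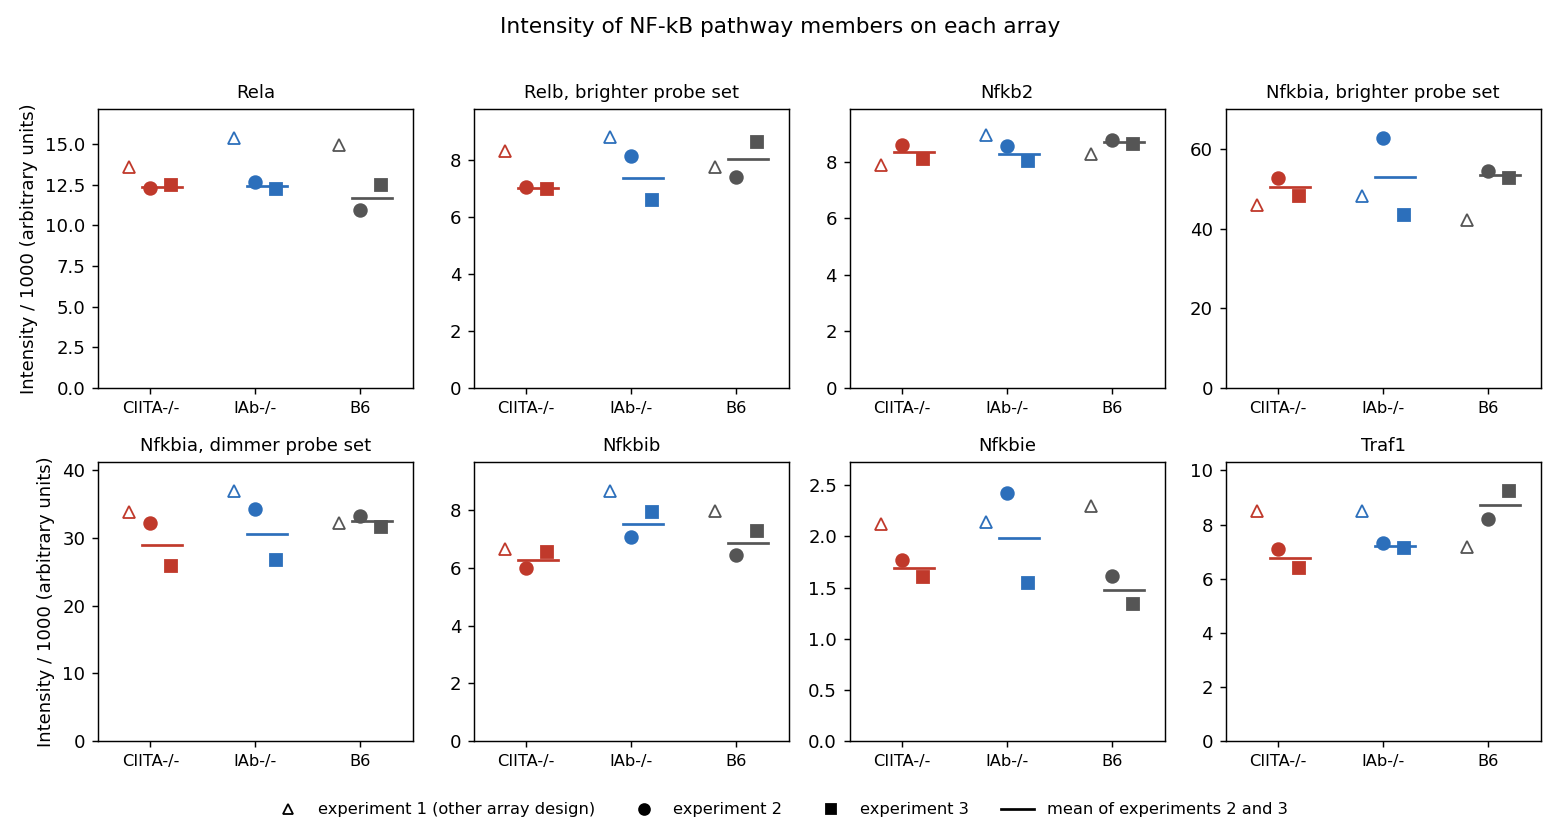
Intensity (arbitrary units divided by 1000, linear axis from 0) of 8 member probe sets on each of the 9 arrays, by group; circles and squares are experiments 2 and 3, open triangles experiment 1 on another array design, and lines the mean of experiments 2 and 3. The groups overlap for most probe sets, and both Traf1 values of B6 in experiments 2 and 3 (8196 and 9232) lie above all 4 of the other groups.

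RelA (Rela), the main activating subunit of the classical pathway, was above noise on all 9 arrays. It gave 12262 and 12495 in CIITA-/-, 12649 and 12213 in IAb-/-, and 10915 and 12484 in B6. The groups overlapped, and only the B6 array of experiment 2 was low. The log2 difference was 0.08 (95% interval -0.29 to 0.46) in CIITA-/- against B6 and 0.09 (-0.29 to 0.47) in IAb-/- against B6. In experiment 1 it gave 13580 in CIITA-/-, 15389 in IAb-/- and 14945 in B6. The other Rela probe set of the 6-array table was below 0 on every array, between -255 and -50, and was not tested. A Rela probe set found only in experiment 1 was within noise.

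Nfkb2, which encodes p100 and its product p52, had the narrowest range of the members, at 1.09-fold between the highest and the lowest of the 6 arrays. It gave 8584 and 8096 in CIITA-/-, 8573 and 8018 in IAb-/-, and 8780 and 8630 in B6. Both B6 values lay narrowly above the others. The log2 difference was -0.06 (95% interval -0.42 to 0.29, limma adjusted p = 0.97) in CIITA-/- against B6 and -0.07 (-0.43 to 0.29) in IAb-/- against B6. In experiment 1 Nfkb2 gave 7890 in CIITA-/-, 8935 in IAb-/- and 8287 in B6, where the IAb-/- array was the highest.

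RelB (Relb), the partner of p52, was read by 2 probe sets in the 6-array table. The brighter gave 7051 and 6969 in CIITA-/-, 8143 and 6584 in IAb-/-, and 7398 and 8639 in B6. The CIITA-/- values lay close together below both B6 values, whereas the IAb-/- values spanned those of CIITA-/-. The log2 difference was -0.19 (95% interval -0.66 to 0.28, limma adjusted p = 0.93) in CIITA-/- against B6 and -0.13 (-0.60 to 0.34) in IAb-/- against B6. Experiment 1 ran the other way in both comparisons, with 8302 in CIITA-/-, 8793 in IAb-/- and 7762 in B6.

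The dimmer Relb probe set gave 1230 and 1860 in CIITA-/-, 1267 and 1605 in IAb-/-, and 1377 and 2733 in B6. It exceeded noise only on the experiment 3 arrays of CIITA-/- and B6. A Relb probe set found only in experiment 1 gave 554 in CIITA-/-, 956 in IAb-/- and 1295 in B6, all within noise. Against the noise limit the mean of the dimmer probe set of the 6-array table was at least 1.21-fold lower in IAb-/- than in B6. That bound concerns the 2 means alone and rests on 1 B6 array above noise (limma adjusted p = 1). The fitted log2 difference of this probe set in IAb-/- against B6 was -0.44, with a 95% interval of -1.53 to 0.64 that contained 0. Its log2 difference in CIITA-/- against B6 was -0.36 (95% interval -1.44 to 0.73), and without B6 replicate 3 it was 0.14.

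c-Rel (Rel), the subunit known in dendritic cells for its role in interleukin 12 production, was within noise on every array, so its fitted differences are not read as changes. It gave 495 and 299 in CIITA-/-, 312 and 303 in IAb-/-, and 390 and 373 in B6, and 61, 253 and 282 on the CIITA-/-, IAb-/- and B6 arrays of experiment 1.

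**Figure D2:**
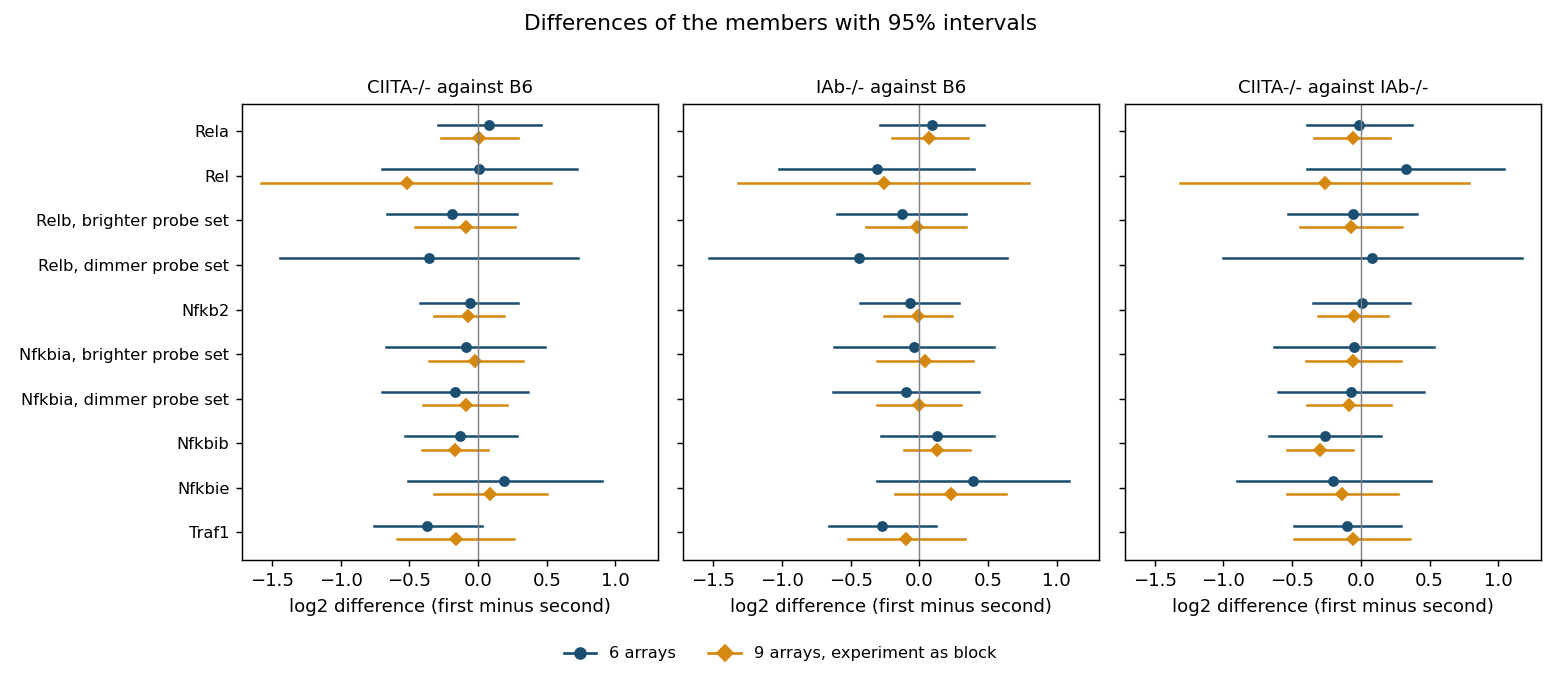
Log2 difference (horizontal axis, first group minus second) of the 10 member probe sets tested, with 95% intervals from limma on 6 arrays (circles) and, for the 9 shared by both designs, on all 9 arrays with the experiment as a block (diamonds). All intervals contain 0 except that of Nfkbib in CIITA-/- against IAb-/- over 9 arrays, which runs from -0.54 to -0.06.

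IkB-alpha (Nfkbia), the inhibitor that NF-kB itself induces, was read by 2 probe sets above noise on all 9 arrays. The brighter gave 52759 and 48162 in CIITA-/-, 62765 and 43329 in IAb-/-, and 54530 and 52639 in B6. The IAb-/- arrays held both the highest and the lowest value, so the spread within that group exceeded every difference between group means. The dimmer gave 32152 and 25762 in CIITA-/-, 34164 and 26751 in IAb-/-, and 33231 and 31534 in B6. Here too the experiment 3 arrays of CIITA-/- and IAb-/- were the low ones, and the groups overlapped.

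The log2 difference of Nfkbia in CIITA-/- against B6 was -0.09 (95% interval -0.67 to 0.49) by the brighter probe set and -0.17 (-0.70 to 0.36) by the dimmer. It was -0.04 (-0.62 to 0.54) and -0.10 (-0.63 to 0.43) by the same probe sets in IAb-/- against B6, and none of the 4 passed (limma adjusted p from 0.93 to 1). In experiment 1 the brighter gave 46056 in CIITA-/-, 48316 in IAb-/- and 42083 in B6. The dimmer gave 33767 in CIITA-/-, 36831 in IAb-/- and 32221 in B6 there. Both mutant groups were above B6 there, the reverse of the means of experiments 2 and 3.

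The spread of Nfkbia within IAb-/- was seen beside one of the same direction in Cre, a control transcript on these arrays that is commonly spiked in. The 5′ Cre probe set read 1.3 times its 6-array mean on the IAb-/- array of experiment 2 and 0.76 times on that of experiment 3, and the brighter Nfkbia probe set 1.2 and 0.83 times. On the CIITA-/- arrays Cre read 1.04 and 1.02 times its mean and Nfkbia 1.01 and 0.92 times, and on the B6 arrays 0.93 and 0.94 against 1.04 and 1.01. After quantile normalization the brighter Nfkbia probe set stood at 50681 and 47522 in CIITA-/-, 55859 and 47278 in IAb-/-, and 56398 and 55517 in B6. On that scale both CIITA-/- values lay below both B6 values, with a log2 difference of -0.19 (limma adjusted p = 0.91). How many of all probe sets separate on that scale was not counted. The part of array brightness in the Nfkbia values was not tested.

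**Figure D3:**
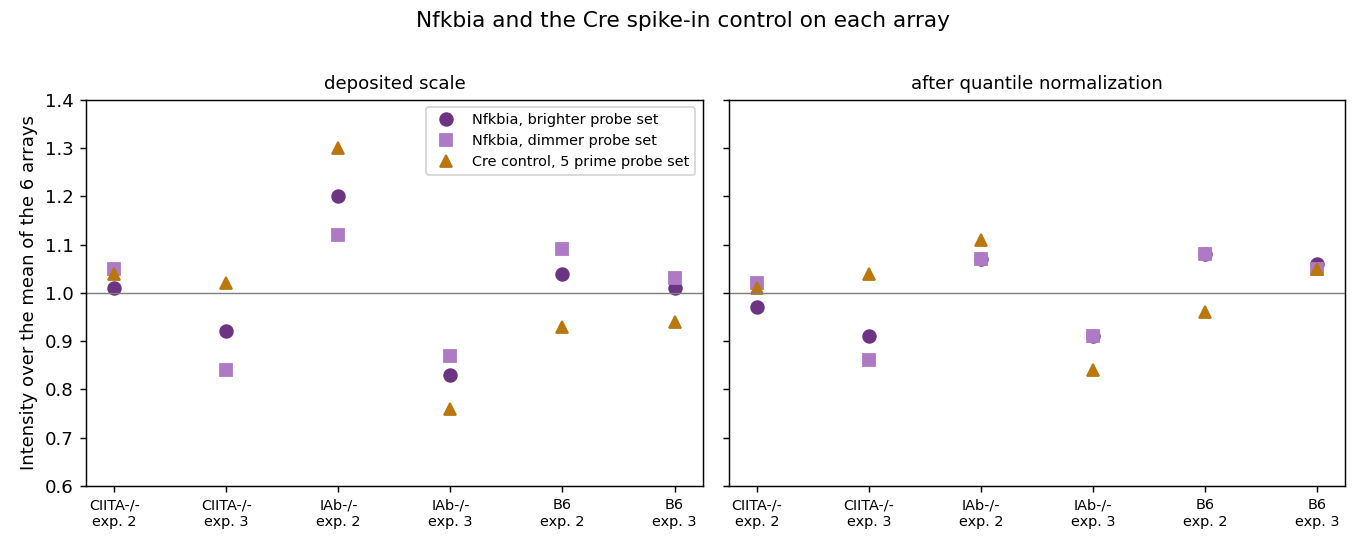
Intensity of both Nfkbia probe sets and of the 5′ Cre control probe set on each of the 6 arrays, divided by the mean of the 6, on the deposited scale (left) and after quantile normalization (right). On the deposited scale all 3 are highest on the IAb-/- array of experiment 2, where Cre reads 1.3 and the brighter Nfkbia probe set 1.2.

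IkB-beta (Nfkbib), an inhibitor that also binds RelA and c-Rel dimers, kept one sign between the mutant groups in each experiment. It gave 5989 and 6539 in CIITA-/-, 7073 and 7912 in IAb-/-, and 6442 and 7250 in B6. Its mean was 6264 ± 389 in CIITA-/-, 7492 ± 593 in IAb-/- and 6846 ± 572 in B6 (SD, n = 2 each). B6 lay between the mutants and overlapped each of them, and the CIITA-/- and IAb-/- values did not overlap. In experiment 1 the order was the same, at 6631 in CIITA-/-, 8639 in IAb-/- and 7942 in B6.

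The log2 difference of Nfkbib in CIITA-/- against IAb-/- was -0.38, -0.24 and -0.27 within experiments 1, 2 and 3. On the 6 arrays it was -0.26 (95% interval -0.67 to 0.15, limma adjusted p = 1). With all 9 arrays and the experiment as a replicate block it was -0.30 (-0.54 to -0.06), with an unadjusted p of 0.024 in limma and an adjusted p of 0.98 over 7391 probe sets, which did not pass. Against B6, Nfkbib was lower in CIITA-/- in each experiment (-0.26, -0.11 and -0.15) and higher in IAb-/- in each (0.12, 0.13 and 0.13), and neither comparison passed (limma adjusted p = 0.93 and 1).

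IkB-epsilon (Nfkbie), a further cytoplasmic inhibitor, lay around the noise limit. It gave 1774 and 1603 in CIITA-/-, 2424 and 1541 in IAb-/-, and 1618 and 1344 in B6. Both B6 values were below the limit, and 1 array each of CIITA-/- and IAb-/- was above it. Against the noise limit the mean of IAb-/- was at least 1.17-fold higher than B6. That bound concerns the group means alone and rests on the experiment 2 array of IAb-/- (limma adjusted p = 1). The fitted log2 difference in IAb-/- against B6 was 0.39. Its 95% interval of -0.31 to 1.09 also allows a lower level in IAb-/-. In experiment 1 the B6 array was the highest, at 2119 in CIITA-/-, 2144 in IAb-/- and 2294 in B6.

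Bcl3, a nuclear IkB family protein that binds p50 and p52 dimers, was not detected. Its probe set was below 0 on all 6 arrays of experiments 2 and 3, between -1241 and -171, and was left out by the filter. In experiment 1 it gave -171 in CIITA-/-, 1858 in IAb-/- and -1031 in B6, all under the limit of 2203 of that table.

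Traf1, an adaptor of TNF receptor signalling that is itself an NF-kB target, had the largest difference of the 7 member probe sets above noise. It gave 7116 and 6411 in CIITA-/-, 7325 and 7124 in IAb-/-, and 8196 and 9232 in B6. On the deposited scale no groups overlapped: CIITA-/- was lowest, IAb-/- narrowly above it, and B6 highest. The log2 difference was -0.37 (SE 0.15, 95% interval -0.76 to 0.03, limma adjusted p = 0.87) in CIITA-/- against B6 and -0.27 (SE 0.15, -0.66 to 0.12, adjusted p = 1) in IAb-/- against B6. It was -0.10 (-0.49 to 0.29) in CIITA-/- against IAb-/-. After quantile normalization these 2 groups overlapped, at 7192 and 6322 in CIITA-/- and 7409 and 7074 in IAb-/-.

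Experiment 1 did not show the same order for Traf1. It gave 8513 in CIITA-/-, 8516 in IAb-/- and 7169 in B6, so that the log2 difference against B6 was 0.25 in both mutants, opposite to -0.20 and -0.53 in CIITA-/- and to -0.16 and -0.37 in IAb-/- within experiments 2 and 3. Over all 9 arrays with the experiment as a replicate block the difference was -0.16 (95% interval -0.59 to 0.26) in CIITA-/- against B6 and -0.10 (-0.52 to 0.33) in IAb-/- against B6.

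**Figure D4:**
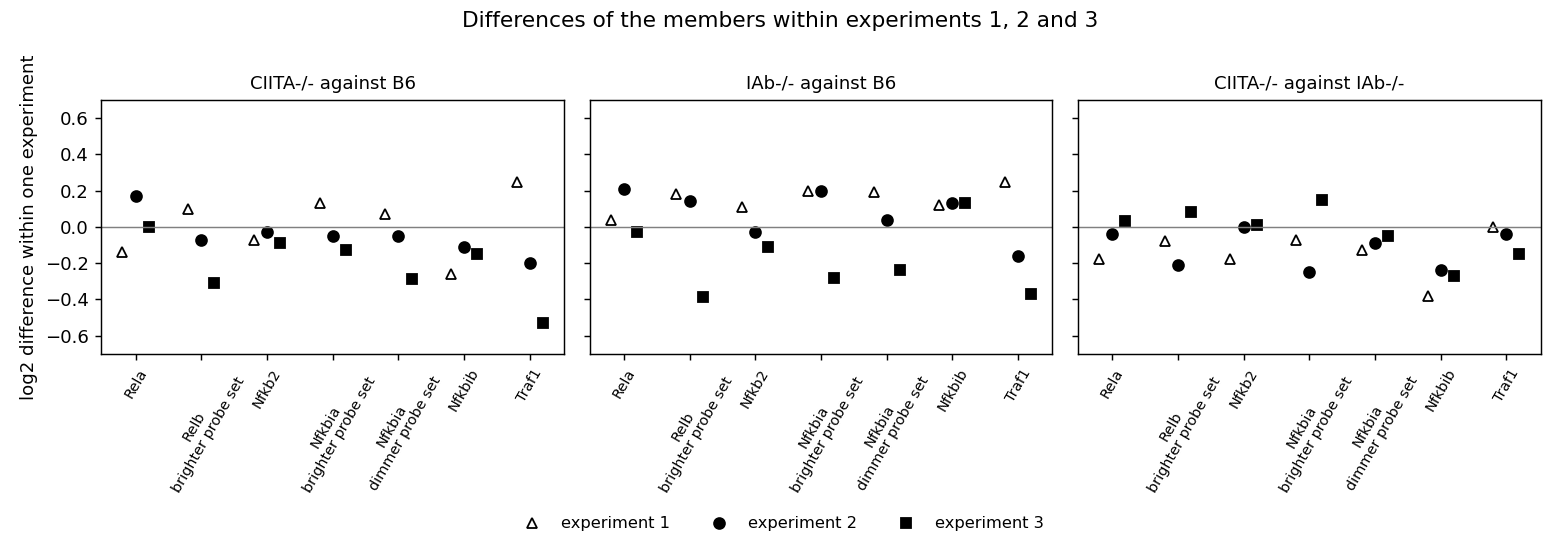
Log2 difference (vertical axis) within each of experiments 1, 2 and 3 of the 7 member probe sets above noise on all 6 arrays, for the 3 comparisons. Traf1 lies at 0.25 in experiment 1 and below 0 in experiments 2 and 3 against B6, while Nfkbib keeps one sign in every comparison.

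Counted over the 7 probe sets, groups that did not overlap were no more than a few. They were 3 of 7 in CIITA-/- against B6 (Nfkb2, Relb and Traf1, all lower in CIITA-/-), against 41.4% of all probe sets above noise on the 6 arrays and 18.2% that were lower. They were 2 of 7 in IAb-/- against B6 (Nfkb2 and Traf1, lower in IAb-/-), against 32.3% and 15.1%. Between CIITA-/- and IAb-/- they were 2 of 7 (Nfkbib and Traf1, lower in CIITA-/-), against 23.7% and 11.9%. The comparisons against B6 share the B6 arrays. All these counts are on the deposited scale, and which probe sets separate depends on the scale. After quantile normalization Nfkb2 overlapped in CIITA-/- against B6, with 8626 in CIITA-/- of experiment 2 and 8616 in B6 of experiment 3. Traf1 overlapped between CIITA-/- and IAb-/- on that scale, with 7192 in CIITA-/- of experiment 2 and 7074 in IAb-/- of experiment 3. Both Nfkbia probe sets then lay lower in CIITA-/- than in B6 without overlap, the dimmer at 31195 and 26207 against 33183 and 32264. The share of all probe sets that separate on that scale was not counted, so these separations are not read as results about the genes. One sign in experiments 1, 2 and 3 was held by 2 of 7 in CIITA-/- against B6 (Nfkb2 and Nfkbib), by 1 in IAb-/- against B6 (Nfkbib) and by 3 in CIITA-/- against IAb-/- (Nfkbib, the dimmer Nfkbia probe set and Traf1, whose difference in experiment 1 rounds to 0), against 30.8%, 27.5% and 26.1% of the 3137 probe sets above noise that both designs share. With 7 probe sets from 6 genes, these counts differ from the shares over all probe sets by at most 2 probe sets.

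Over the 6 arrays the SD of log2 intensity was 0.05 for Nfkb2, 0.08 for Rela, 0.14 for Nfkbib, 0.15 for Relb, 0.17 and 0.18 for Nfkbia and 0.18 for Traf1. The median over the 3692 probe sets above noise was 0.15, so Nfkb2 and Rela varied less than the typical probe set. The members did not all vary together. With Rela, the Pearson r of log2 values over the 6 arrays was between -0.422 (Nfkb2) and 0.284 (Nfkbib), and with the brighter Nfkbia probe set it was 0.865 for the other Nfkbia probe set, 0.772 for Nfkb2, 0.708 for Relb and -0.34 for Nfkbib.

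The genes most like Rela over the 6 arrays were Fibp (r = 0.969), Tigd5 (0.937) and Etf1 (0.930), out of 3304 named probe sets above noise. Those most like Nfkbia, by its brighter probe set, were Cd63 (0.994), Dstn (0.987) and Usp15 (0.981), and 47 probe sets exceeded 0.9, against 9 for Rela. The 6 points share their arrays and normalization and fall into 3 groups, so these values describe likeness on these arrays.

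The wider pathway was read through 115 further genes in 6 lists, chosen with earlier results of these data known. Of these, 93 were measured, 84 tested and 50 above noise on all 6 arrays, each by its brightest probe set. In limma 0 of the 84 were called in any comparison; an unadjusted p under 0.05 was reached by 1 in CIITA-/- against B6, 7 in IAb-/- against B6 and 3 in CIITA-/- against IAb-/-, beside 5.86%, 4.31% and 4.54% of all probe sets tested. By list the median log2 difference over the genes tested was between -0.17 and 0.02 in CIITA-/- against B6 and between -0.06 and 0.11 in IAb-/- against B6, where it was 0.01 over all probe sets in each. In the third comparison, CIITA-/- against IAb-/-, the 6 medians were all below 0, between -0.29 and -0.03, against 0 over all probe sets. The medians of -0.17, 0.11 and -0.29 are those of a list with 1 gene tested, Nfkbiz, which was within noise on every array. Over genes above noise on all 6 arrays, the median of adaptors and ubiquitin ligases in the third comparison was 0.01. Those of kinases, receptors, ligands and target genes lay between -0.27 and -0.11 there. The lowest, -0.27, is that of the ligands, with 2 genes above noise.

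The nuclear inhibitor Nfkbiz, the 1 gene measured of 3 other IkB family members, was within noise on every array, at 464 ± 155 in CIITA-/-, 587 ± 287 in IAb-/- and 509 ± 8 in B6. Of the 18 IkB kinases and upstream kinases, 10 were measured and 5 were above noise on all 6 arrays. The catalytic kinase Ikbkb was within noise on all 6 arrays, and above it in experiment 1 on the B6 array (2370) alone, beside 1434 in CIITA-/- and 1927 in IAb-/-. The regulatory subunit Ikbkg (NEMO) gave 1041 and 1732 in CIITA-/-, 1082 and 2265 in IAb-/-, and 1996 and 2268 in B6. Its experiment 2 arrays were low in both mutants, and its other probe set had the opposite sign (log2 0.57 and 1.08 against B6, above noise on 1 array), so the gene has no settled direction.

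Kinases above noise were close to level. Map3k1, Map3k3, Tab2 and Irak1, which relay receptor signals towards the IkB kinases, had log2 differences of -0.04, -0.02, -0.13 and -0.18 in CIITA-/- against B6. The same genes stood at 0.19, 0.04, 0.03 and -0.07 in IAb-/- against B6. None passed in limma, with a lowest adjusted p of 0.93 in the list in CIITA-/- against B6 and 1 in IAb-/- against B6. These values are those of the brightest probe sets. Another Map3k3 probe set, above noise on 1 array, stood at -0.35 in CIITA-/- and 0.69 in IAb-/- against B6. A further one, within noise on every array, stood at -0.09 and -0.11. The other Map3k1 probe set, above noise on 3 arrays, stood at -0.21 and -0.14.

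Among adaptors and ubiquitin ligases, 23 of 28 were measured, 16 of them above noise on all 6 arrays. Traf4, a TRAF family member, gave 2972 and 3704 in CIITA-/-, 3679 and 3498 in IAb-/-, and 2469 and 2451 in B6. Both mutants lay above B6 in experiments 2 and 3, with log2 differences of 0.43 (95% interval -0.01 to 0.87, limma adjusted p = 0.85) in CIITA-/- and 0.54 (0.11 to 0.98, unadjusted p = 0.025, adjusted p = 1) in IAb-/-. In experiment 1 the differences were -0.50 and -0.01, so the separation was not seen there.

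Traf2, which recruits ubiquitin ligases to TNF receptors, gave 8030 and 6123 in CIITA-/-, 5883 and 5308 in IAb-/-, and 8574 and 7411 in B6. The IAb-/- values were the low ones, with a log2 difference of -0.51 (95% interval -1.04 to 0.01, limma adjusted p = 1) against B6 and 0.14 in experiment 1. Traf6, the ligase of Toll-like and interleukin 1 receptor signalling, gave 4189 and 3830 in CIITA-/-, 4002 and 4080 in IAb-/-, and 4734 and 4803 in B6. Its log2 differences were -0.25 and -0.24 against B6, and 0.12 and -0.01 in experiment 1. The brightest of the list, Tnip1, Ube2n, Ube2v1 and Nedd8, lay between -0.25 and 0.07 in both comparisons against B6.

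Of 17 receptors that signal to NF-kB, 12 were measured and 5 were above noise on all 6 arrays. Tnfrsf9 (4-1BB) gave 17396 and 14557 in CIITA-/-, 23333 and 16543 in IAb-/-, and 20494 and 22072 in B6. CIITA-/- was the lowest group, with a log2 difference of -0.42 (95% interval -1.01 to 0.17, limma adjusted p = 0.93), and stood at 0.09 in experiment 1. Cd40, through which T cells activate dendritic cells, gave 3045 and 4284 in CIITA-/-, 2952 and 5740 in IAb-/-, and 3695 and 4328 in B6, with overlapping groups. Tnfrsf1b, Cd14 and Ltbr lay between -0.15 and 0.25 in the comparisons against B6. Tnfrsf1a was above noise on 2 of 6 arrays, with an interval of -2.49 to 6.54 in IAb-/- against B6, so no difference was detectable.

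Of the 12 ligands, 11 were measured and 7 were within noise on every array, Tnf (below 0 on all 6 arrays) and Ltb among them. Lta was above noise on 1 array. Il1a, the alarm cytokine interleukin 1 alpha, gave 1443 and 1621 in CIITA-/-, 2178 and 2216 in IAb-/-, and 1325 and 907 in B6. On these 6 arrays only IAb-/- was above noise, and the unadjusted p of 0.008 in IAb-/- against B6 did not pass over all probe sets (limma adjusted p = 0.75). In experiment 1 Il1a gave 2129 in CIITA-/-, 2762 in IAb-/- and 2491 in B6, with B6 above noise too, and the log2 difference in IAb-/- against B6 was 0.15 there. Il1rn, the interleukin 1 receptor antagonist, had a log2 difference of 0.43 (95% interval -0.18 to 1.04) in IAb-/- against B6 and -0.03 in experiment 1. Tnfsf4 (OX40 ligand) lay at -0.15 in CIITA-/- and -0.02 in IAb-/-.

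The largest list held 37 textbook target genes of NF-kB, of which 36 were measured, 31 tested and 22 above noise on all 6 arrays. In CIITA-/- against B6, 0 of the 31 had an unadjusted p under 0.05 in limma, against 5.86% of all probe sets. In IAb-/- against B6, 4 of the 31 had one, 3 higher (Ccl3, Ccl4 and Pim1) and 1 lower (Irf1), against 2.28% and 2.03%, and 0 passed after adjustment (lowest limma adjusted p = 0.87). Ccl3 and Irf1 were named after their values were seen. In experiment 1 the log2 differences in IAb-/- against B6 were -0.53 for Ccl3, -0.39 for Ccl4, 0.50 for Pim1 and -0.20 for Irf1. Of the brightest targets, the maturation marker Cd83 gave 43007 and 40167 in CIITA-/-, 45044 and 43615 in IAb-/-, and 43154 and 43225 in B6.

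The target kinase Pim1 gave 16950 and 18548 in CIITA-/-, 24271 and 22218 in IAb-/-, and 16639 and 15476 in B6, and in experiment 1 21636, 27981 and 19833. IAb-/- was the highest group in each experiment, with a log2 difference of 0.53 against B6 (95% interval 0.15 to 0.92, limma adjusted p = 0.91) and 1.68 by its other probe set (adjusted p = 0.34). Ccl4, a chemokine, gave 4609 and 4396 in CIITA-/-, 5919 and 6058 in IAb-/-, and 3914 and 2588 in B6, but 3351, 3725 and 4881 in experiment 1, where B6 was the highest. Ccl2, which attracts monocytes, gave 1448 and 2384 in CIITA-/-, 2326 and 1713 in IAb-/-, and 443 and 1257 in B6, and in experiment 1 5145, 4862 and 1938. Both B6 values in the fit were within noise, and Ccl2 was higher in both mutants in all 3 experiments without passing (limma adjusted p = 0.90 in CIITA-/- and 1 in IAb-/-). Ccl5, Ccl22 and the iron storage gene Fth1 lay between 0.04 and 0.23 in the comparisons against B6.

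**Figure D5:**
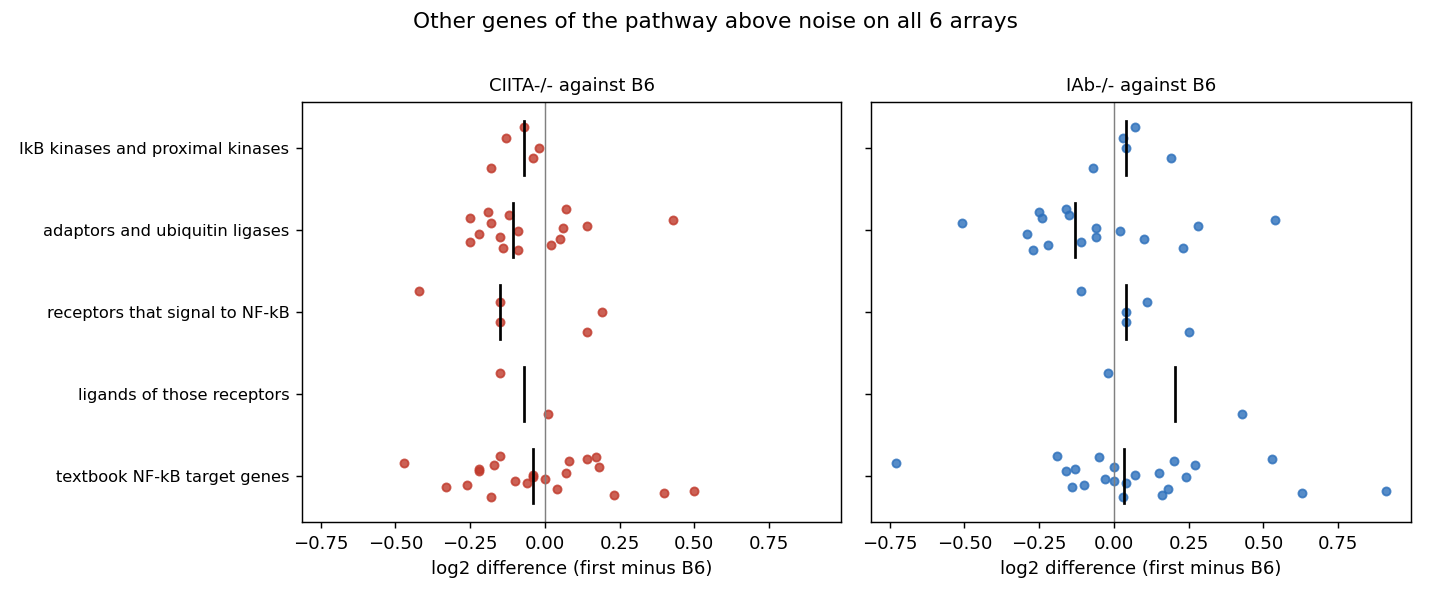
Log2 difference against B6 (horizontal axis) of each further pathway gene above noise on all 6 arrays (points, 1 per gene), for CIITA-/- (left) and IAb-/- (right); black bars are list medians and vertical placement within a list has no meaning. The points of each list lie on both sides of 0 or close to it, and no gene passed in limma.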

How the data were processed

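The authors deposited a linear intensity, some below 0, for every probe set of each array, in a table of 6 arrays and a table of 3; per the labels, RNA preparation and hybridization followed an earlier publication, and the algorithm and scaling are not given in the sources used here. Each array's 2% trimmed mean is 2502.2 to 2502.6 in the larger table and 2500 in the smaller. The deposited scale was kept. Values were floored at the 30th percentile of each table (123.5 and 93.2), log2 was taken, and probe sets that are not controls and lie above the floor on at least 2 of the 6 arrays were tested (9312 of 12422) by linear models with moderated variances (limma 3.58.1, R 4.3.3), all 3 groups in 1 fit with 3 residual degrees of freedom. Calls use a Benjamini-Hochberg adjusted p under 0.05. The floor understates differences of dim probe sets. Tests were run within the 6-array table; experiment 1 enters as differences within it and in a fit of all 9 arrays over 7391 shared probe sets. Folds against a group wholly under the noise limit are bounds, the brighter mean over the limit. Intervals and p-values measure the spread between these arrays, and the number of arrays limits their precision.

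Symbols come from the platform annotation, updated through gene ID where RefSeq had one; probe sets with several symbols stayed unnamed. All member probe sets are reported. Of each pathway list, the 4 brightest genes and, above noise on at least 2 arrays, the 2 with the smallest unadjusted p against B6 in each mutant were named, with any gene called. H2-Aa and H2-Ab1 were named as a check of labels. Ikbkb, Tnf and Ltb, named for their noise, and Ciita, named as the gene of a label, fall outside that rule and were added after the values were seen. The members and lists were chosen with earlier results of these data known.

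The titles give the experiment as the number shared across groups, which was taken as the pairing. Deviations from the group means of same-numbered arrays correlated across the 9312 probe sets at 0.05 (CIITA-/- and B6), 0.08 (IAb-/- and B6) and 0.21 (CIITA-/- and IAb-/-), and across the 3692 above noise at 0.22, 0.30 and 0.31 in the same order. The fit was checked on simulated data. Other floors, log scales, scalings, filters, the block and leaving out each array were tried as alternatives.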

Additional observations from a re-analysis of the deposited data

How the results depend on the processing

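Under every alternative run, limma called 0 member probe sets and 0 further pathway genes, and the lowest adjusted p of a member was 0.51 (IAb-/- against B6 without IAb-/- replicate 3). In CIITA-/- against B6, 1 member probe set had an unadjusted p under 0.05 in limma with the 40th percentile, the started log, no filter, the filter on noise, and trend and robust eBayes. Over all probe sets 462 of 7970, 482 of 9312, 696 of 12422, 230 of 4618 and 468 of 9312 did in that order. With all arrays kept, 1 member also did in IAb-/- against B6 without the filter (559 of 12422 overall). The same held in CIITA-/- against IAb-/- with the block over 9 arrays (331 of 7391). Counts over all probe sets did change. In CIITA-/- against B6 the 9 calls became 5 with the floor at the 40th percentile, 14 without the filter, 0 with the replicate block on 6 arrays, and 4 each with the started log, the filter on noise, trend and robust eBayes, and the block over 9 arrays; leaving out an array gave 0 to 1. For IAb-/- against B6 the 1 call became 3 after quantile normalization and 5 without the filter, and 0 with the 40th percentile, the started log, the filter on noise, trend and robust eBayes, and either replicate block; leaving out an array gave 0 to 0. Between CIITA-/- and IAb-/- the 2 calls became 1 with the 40th percentile or the started log, 7 without the filter, 4 with the filter on noise and 0 with the replicate block on 6 arrays; leaving out an array gave 0 to 1. The causes were not tested. The floor at the 20th percentile was not run, since that value, -32, has no logarithm.

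Signs of several differences turned, some of them near 0 and others, of probe sets in or near noise, larger. Rel in CIITA-/- against B6 was -0.03 after quantile normalization and -0.52 with the block over 9 arrays (0.01 as reported), and in CIITA-/- against IAb-/- it was -0.26 with that block (0.33). The 9-array block also gave 0.04 for the brighter Nfkbia probe set in IAb-/- against B6 and -0.05 for Nfkb2 in CIITA-/- against IAb-/-, and scaling to bright probe sets gave 0.01 for Rela in CIITA-/- against IAb-/-. Leaving out an array turned these signs. In CIITA-/- against B6, the dimmer Relb probe set ran from -0.85 to 0.14, Rela from -0.01 to 0.18 and Rel from -0.35 to 0.38. In IAb-/- against B6, Nfkbia ran from -0.31 to 0.23 (brighter probe set) and -0.28 to 0.08 (dimmer), Relb from -0.28 to 0.03 (brighter) and -0.94 to 0.05 (dimmer), and Rela from -0.01 to 0.19. Between CIITA-/- and IAb-/-, Nfkbia ran from -0.32 to 0.22 (brighter probe set) and -0.25 to 0.11 (dimmer), Nfkbie from -0.52 to 0.13, Relb from -0.22 to 0.09 (brighter) and -0.21 to 0.38 (dimmer), Nfkb2 from -0.04 to 0.06, Rela from -0.03 to 0.02 and Rel from -0.04 to 0.69. A group left with 1 array is assumed to vary like the others. The replicate block changed no member call. With 2 arrays a group in the fit and probe sets such as Rel and Bcl3 within noise, small differences were not detectable.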
